A study of Mus musculus with 8 samples.

Results

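The genes described here are 48 genes of the cell division cycle, 23 that copy DNA or prepare cells for it and 25 that act in mitosis, out of 52325 genes in the count table. They were listed by name, by their known roles in the cell cycle and with earlier results of these data known, and all 48 were found under 1 identifier each and passed the filter on low counts, which left 18174 genes to test. Laser-captured micro-dissected (LCM) endometrium was dissected from uteri of 4 Thra1PV/+ and 4 WT mice, and each mouse gave 1 RNA-seq library. Thra1PV/+ mice carry the PV mutation, a C-terminal frameshift that makes the thyroid hormone receptor TRα1 dominant negative, in 1 allele of Thra in every cell of the body, and WT mice carry none. All females had been brought to metestrus, the phase of the estrous cycle that follows ovulation, and their ages are not given in the sources used here. No other treatment is named for either genotype.

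Cells that enter the cycle load the MCM helicase onto replication origins in G1, fire those origins in S phase, and then build a spindle to separate the chromosomes in M phase. The activator E2F factors drive the genes of the first wave. The genes of the later wave are driven by complexes with B-MYB and FOXM1 that act through a cell cycle homology region (CHR) near the start of many genes, while the DREAM complex represses cell cycle genes in resting cells. Because mitotic mRNAs are made late and removed after division, while replication mRNAs appear from late G1, the groups are described apart. In the rodent uterus, division of epithelium and stroma follows the ovarian hormones through the cycle.

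The promoters of both groups were searched first, since their sequences are independent of the measured values. RefSeq promoter windows on GRCm38.p6, from 250 bases before to 50 bases after the start of the gene, were found for 38 of the 48 genes, 18 of replication and 20 of mitosis. Both strands were searched for the E2F words TTTCCCGC, TTTGGCGC, TTTGCCGC and TTTCGCGC, for the CHR words TTTGAA and TTCGAA, and for the CCAAT box, which is bound by NF-Y. An E2F word was present in 7 of 18 replication genes (38.9%), in 1 of 20 mitosis genes (5.0%) and in 2.60% of all genes with a promoter in the table. A CHR word was present in 3 of 18 replication genes (16.7%), in 15 of 20 mitosis genes (75.0%) and in 21.7% of all genes. A CCAAT box was present in 12 of 18 (66.7%), in 17 of 20 (85.0%) and in 41.1%, respectively. In the only overlap between different motifs, an E2F word of Mcm7 shared a base with a CCAAT box. These matches describe letters in a window and do not show that a factor was bound.

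The following windows show the difference between the groups. Each ends at the base before the RefSeq start of the gene and is read 5′ to 3′ on the strand of the gene. Capitals mark E2F words, CHR words and CCAAT boxes on either strand, so that ATTGG is a CCAAT box and TTCAAA is a CHR word read on the other strand.
Mcm6, helicase subunit, chr1:128359706-128359825, minus strand: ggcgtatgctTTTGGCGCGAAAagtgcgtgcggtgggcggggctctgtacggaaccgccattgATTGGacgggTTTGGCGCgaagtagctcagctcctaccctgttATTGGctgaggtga
Mcm5, helicase subunit, chr8:75109344-75109508, plus strand: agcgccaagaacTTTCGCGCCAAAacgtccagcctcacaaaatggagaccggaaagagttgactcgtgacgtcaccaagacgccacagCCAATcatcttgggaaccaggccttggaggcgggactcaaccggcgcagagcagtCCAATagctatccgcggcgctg
Cdc6, helicase loader, chr11:98908001-98908150, plus strand: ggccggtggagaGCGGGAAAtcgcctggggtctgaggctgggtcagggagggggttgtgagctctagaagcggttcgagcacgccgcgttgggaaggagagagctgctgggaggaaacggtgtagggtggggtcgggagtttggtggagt
Cdk1, mitotic kinase, chr10:69352913-69353052, minus strand: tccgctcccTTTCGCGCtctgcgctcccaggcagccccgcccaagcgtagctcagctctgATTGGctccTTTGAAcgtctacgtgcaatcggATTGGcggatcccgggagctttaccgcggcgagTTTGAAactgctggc
Ube2c, ubiquitin-conjugating enzyme, chr2:164769829-164769928, plus strand: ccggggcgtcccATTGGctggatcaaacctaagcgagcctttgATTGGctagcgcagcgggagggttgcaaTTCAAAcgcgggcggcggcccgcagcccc
Kif11, spindle motor, chr19:37376322-37376381, plus strand: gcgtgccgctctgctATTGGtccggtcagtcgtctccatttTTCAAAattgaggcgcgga
Cdc20, activator of the anaphase-promoting complex, chr4:118437344-118437403, minus strand: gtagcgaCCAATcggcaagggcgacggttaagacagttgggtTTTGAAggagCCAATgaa
Cdk1 was the only mitosis gene with an E2F word. All 4 mitosis genes shown have a CHR word close to the RefSeq start and a CCAAT box before it. Starts differ between annotations. In GENCODE M21, Cdc6 begins at chr11:98907801, so its printed window lies inside the gene. The CHR word of Ube2c and the last CHR word of Cdk1 also lie after their GENCODE starts. The windows are chosen examples of differing length and do not stand for the whole group. In Cenpa, Plk1 and Aurka, for example, the CHR word lies after the start, and Ccnb1 and Cenpe have no CHR word.

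Library totals ranged from 48791602 to 59818887 estimated counts, so depth differed little. Levels are given as CPM, the counts of a gene scaled to a common library size after TMM normalization. The lowest rounded count of any of the 48 genes in any library was 6, for Bub1 in WT library 1. The make-up of the captured tissue also differed between libraries. Markers of endometrial stroma and of simple epithelium, 10 of each, were present in every library, but the summed CPM of the stromal markers was 6816 in Thra1PV/+ library 1 against 756 to 1967 in the other 3 Thra1PV/+ libraries. It was 6073 and 6372 in WT libraries 1 and 2 and 2287 and 2479 in WT libraries 3 and 4.

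Levels of both groups overlapped between the genotypes in nearly all cases, and Thra1PV/+ library 1 stood above the rest. The mean log2 CPM of the 23 replication genes was 4.36, 3.34, 2.95 and 3.55 in Thra1PV/+ libraries 1 to 4 and 2.63, 3.25, 2.18 and 3.11 in WT libraries 1 to 4. The means were 3.55 ± 0.597 (SD, n = 4) in Thra1PV/+ and 2.79 ± 0.487 (SD, n = 4) in WT endometrium. The mean log2 CPM of the 25 mitosis genes was 4.35, 2.40, 1.29 and 2.03 in Thra1PV/+ libraries and 0.66, 2.75, 1.03 and 1.60 in WT libraries. Here the means were 2.52 ± 1.31 and 1.51 ± 0.914 (SD, n = 4 each), and WT library 2 was above Thra1PV/+ libraries 2, 3 and 4. Without Thra1PV/+ library 1, the Thra1PV/+ mean was 3.28 ± 0.305 for replication and 1.91 ± 0.567 for mitosis (SD, n = 3). In bulk RNA, a difference in the number of cycling cells and a difference in cell cycle mRNA per cell cannot be told apart.

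**Figure D1:**
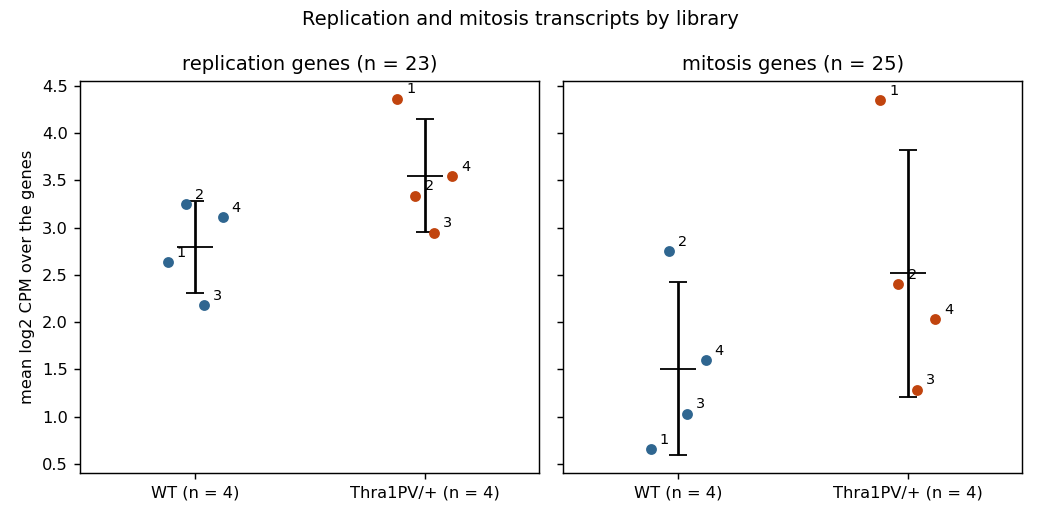
Mean log2 CPM over the 23 replication genes (left) and the 25 mitosis genes (right) in each library, numbered by replicate, with the mean and SD of 4 libraries as bars. Thra1PV/+ library 1 is highest in both panels, at 4.36 and 4.35, and WT library 2, at 2.75, is above the other 3 Thra1PV/+ libraries for mitosis.

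The distance between the groups also varied by library. Replication exceeded mitosis by only 0.02 log2 CPM in Thra1PV/+ library 1 and by 0.50 in WT library 2, the libraries with the most mitotic mRNA, against 0.94 to 1.66 in the other Thra1PV/+ libraries and 1.15 to 1.98 in the other WT libraries. Per transcript length, in the deposited TPM values, the replication genes ranged from 1.36 to 81.4 TPM (mean of 8 libraries, median gene 6.14). Pcna, the sliding clamp of the polymerases, was highest at 81.4 TPM, followed by Mcm7 at 32.9 TPM. The mitosis genes ranged from 0.604 to 15 TPM (median gene 2.30), led by Ube2c at 15 and Cdk1 at 12.6 TPM.

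The helicase that unwinds DNA is built from Mcm2 to Mcm7, Cdc45 and the GINS subunits, of which 9 genes were measured. All 9 had a higher fitted level in Thra1PV/+ endometrium, with log2 fold changes of 0.36 to 1.07 and a median of 0.65, and none passed the test. Mcm7 was 60.4, 53.9, 53.4 and 62.3 CPM in Thra1PV/+ and 41.8, 43.4, 40.8 and 53.6 CPM in WT libraries. Only Thra1PV/+ library 3, at 53.4 CPM, was below the highest WT library, and the log2 fold change was 0.36 ± 0.13 (SE; adjusted p = 0.404). Mcm7 was the only 1 of the 48 genes that was not highest in Thra1PV/+ library 1.
Mcm6 was 73.8, 42.9, 42.1 and 54.0 CPM in Thra1PV/+ and 24.9, 37.3, 25.5 and 48.1 CPM in WT libraries. WT library 4 was above Thra1PV/+ libraries 2 and 3, and the log2 fold change was 0.65 ± 0.27 (SE; adjusted p = 0.493). Mcm5 was 38.3, 13.4, 10.7 and 20.1 CPM in Thra1PV/+ and 8.22, 14.3, 3.16 and 13.4 CPM in WT libraries. Its lowest value was in WT library 3, and WT libraries 2 and 4 lay within the range of the Thra1PV/+ libraries.
Mcm2 was 45.9, 27.0, 26.6 and 39.3 CPM in Thra1PV/+ and 20.6, 29.6, 13.7 and 35.4 CPM in WT libraries. Mcm3 was 44.8, 22.3, 18.2 and 29.9 CPM against 14.7, 21.2, 6.43 and 23.1 CPM. For both subunits, WT libraries 2 and 4 lay within the range of the Thra1PV/+ libraries.

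Among the factors that license and fire origins, Cdc6, which loads the MCM helicase with Cdt1, gave the smallest p-value of the 48 genes. It was 10.1, 7.59, 4.58 and 5.03 CPM in Thra1PV/+ and 1.18, 2.71, 1.97 and 3.73 CPM in WT libraries. Every Thra1PV/+ library was above every WT library, with a log2 fold change of 1.51 ± 0.42 (SE), but the adjusted p-value of edgeR's quasi-likelihood test was 0.270. Cdc6 was the only 1 of the 48 genes without overlap (2.08%), against 3.55% of all tested genes that were higher in every Thra1PV/+ library.
Mcm10, which helps to activate the loaded helicase, was 7.14, 3.49, 1.51 and 3.82 CPM in Thra1PV/+ and 0.668, 1.52, 1.29 and 2.09 CPM in WT libraries. Thra1PV/+ library 3 was among the WT values, and the log2 fold change was 1.52 ± 0.53 (SE; adjusted p = 0.388). Cdt1 differed by 0.54 (log2) and had overlapping groups.

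The polymerase genes differed least. Pola1 and Prim1 (priming of new strands), Pole (leading strand), Pcna and Rfc4 (clamp loader) had log2 fold changes of 0.22 to 0.79, with a median of 0.25. Pcna, often used as a marker of cycling cells, was 113, 72.9, 76.8 and 82.3 CPM in Thra1PV/+ and 62.5, 70.1, 53.3 and 78.5 CPM in WT libraries. WT library 4 was above Thra1PV/+ libraries 2 and 3, and the log2 fold change was 0.38 ± 0.18 (SE; adjusted p = 0.563).

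Of the genes that supply deoxynucleotides, Rrm2, the S-phase subunit of ribonucleotide reductase, was 18.5, 6.57, 3.06 and 6.72 CPM in Thra1PV/+ and 1.74, 4.39, 1.39 and 2.70 CPM in WT libraries. Only Thra1PV/+ library 3 fell within the WT range, and the log2 fold change was 1.77 ± 0.60 (SE; adjusted p = 0.370). Rrm1, its partner subunit, and Tyms, which makes thymidylate, had log2 fold changes of 0.44 and 0.38.

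The regulators of entry into S phase included the largest fold change of the 48 genes. Ccne1, the gene of cyclin E1, which activates CDK2, was 7.95, 3.96, 1.33 and 2.73 CPM in Thra1PV/+ and 0.420, 1.99, 0.398 and 1.11 CPM in WT libraries. Its log2 fold change of 2.03 ± 0.71 (SE; adjusted p = 0.393) came with overlapping groups, since Thra1PV/+ library 3 was below WT library 2. Ccne2 was 7.25, 2.52, 1.55 and 2.80 CPM against 0.878, 3.14, 0.796 and 1.34 CPM, with WT library 2 above all Thra1PV/+ libraries but the first. E2f1, the gene of an activator E2F, was 12.6, 6.72, 3.62 and 7.28 CPM against 3.80, 4.48, 2.19 and 4.71 CPM, with a log2 fold change of 0.99 ± 0.42 (SE; adjusted p = 0.493).

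All 25 mitosis genes had a higher fitted level in Thra1PV/+ endometrium, and none passed the test. Their log2 fold changes were 0.50 to 1.70 with a median of 1.22, and adjusted p-values were 0.596 to 0.857. Thra1PV/+ library 1 was highest of the 8 libraries for all 25, and WT library 2 was above Thra1PV/+ libraries 2, 3 and 4 for 23 of them, against 40.4% of all tested genes.
Of the mitotic cyclins and their kinase, Ccnb1, the gene of cyclin B1, was 19.4, 3.71, 1.49 and 2.49 CPM in Thra1PV/+ and 0.553, 5.45, 0.776 and 2.49 CPM in WT libraries. Cdk1 was 30.2, 6.62, 3.49 and 7.35 CPM in Thra1PV/+ and 2.08, 10.8, 2.84 and 4.98 CPM in WT libraries. In both genes WT library 2 held the second place of the 8 libraries. Their log2 fold changes were 1.54 ± 0.99 and 1.20 ± 0.76 (SE), with adjusted p-values of 0.674 and 0.670.

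Among the kinases and checkpoint genes (Aurka, Aurkb, Plk1, Ttk, Bub1 and Bub1b), Bub1, which holds anaphase until chromosomes are attached, was 10.4, 1.93, 0.776 and 1.49 CPM in Thra1PV/+ and 0.114, 2.58, 0.477 and 1.30 CPM in WT libraries. Its SD of log2 CPM within a genotype, 1.68, was the largest of the 48 genes, and its log2 fold change was 1.70 ± 1.06 (SE; adjusted p = 0.661). Bub1b differed least of the mitosis genes, at 0.50 ± 0.62 (SE). Ube2c, which with Cdc20 serves the anaphase-promoting complex, was 27.1, 8.60, 3.84 and 5.81 CPM against 1.83, 9.33, 3.26 and 5.02 CPM. WT library 2 was again second to Thra1PV/+ library 1.

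Of the spindle genes, Nusap1, which bundles microtubules, was 22.0, 3.47, 2.15 and 2.70 CPM in Thra1PV/+ and 0.897, 4.80, 1.55 and 2.24 CPM in WT libraries. Thra1PV/+ library 1 was 7.93 times the mean of the other 3 Thra1PV/+ libraries, the largest such ratio of the 48 genes. The genes of the centromere and passenger complex, Cenpa, Cenpe, Cenpf and Birc5, had log2 fold changes of 1.08 to 1.37, and the transcription factors Foxm1 and Mybl2 had 1.16 and 0.54.

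Mki67, the gene of the proliferation marker Ki-67, which coats mitotic chromosomes, was 63.3, 24.3, 6.97 and 17.9 CPM in Thra1PV/+ and 5.65, 24.5, 6.25 and 9.0 CPM in WT libraries. Thra1PV/+ library 3 lay near the lowest WT libraries and WT library 2 was level with Thra1PV/+ library 2. The log2 fold change was 1.31 ± 0.72 (SE; adjusted p = 0.615). Top2a, which untangles sister chromosomes, was 77.0, 21.1, 8.44 and 17.2 CPM against 4.22, 28.1, 4.87 and 12.2 CPM, with a log2 fold change of 1.32 ± 0.82 (SE; adjusted p = 0.658). For both genes Thra1PV/+ library 1 and WT library 2 were the highest of their genotypes by a wide margin. By antibody staining, the authors found less Ki-67 protein in luminal epithelium and glands of Thra1PV/+ mice. The values here are mRNA of captured endometrium, not separated by compartment, so the measures are not alike.

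**Figure D2:**
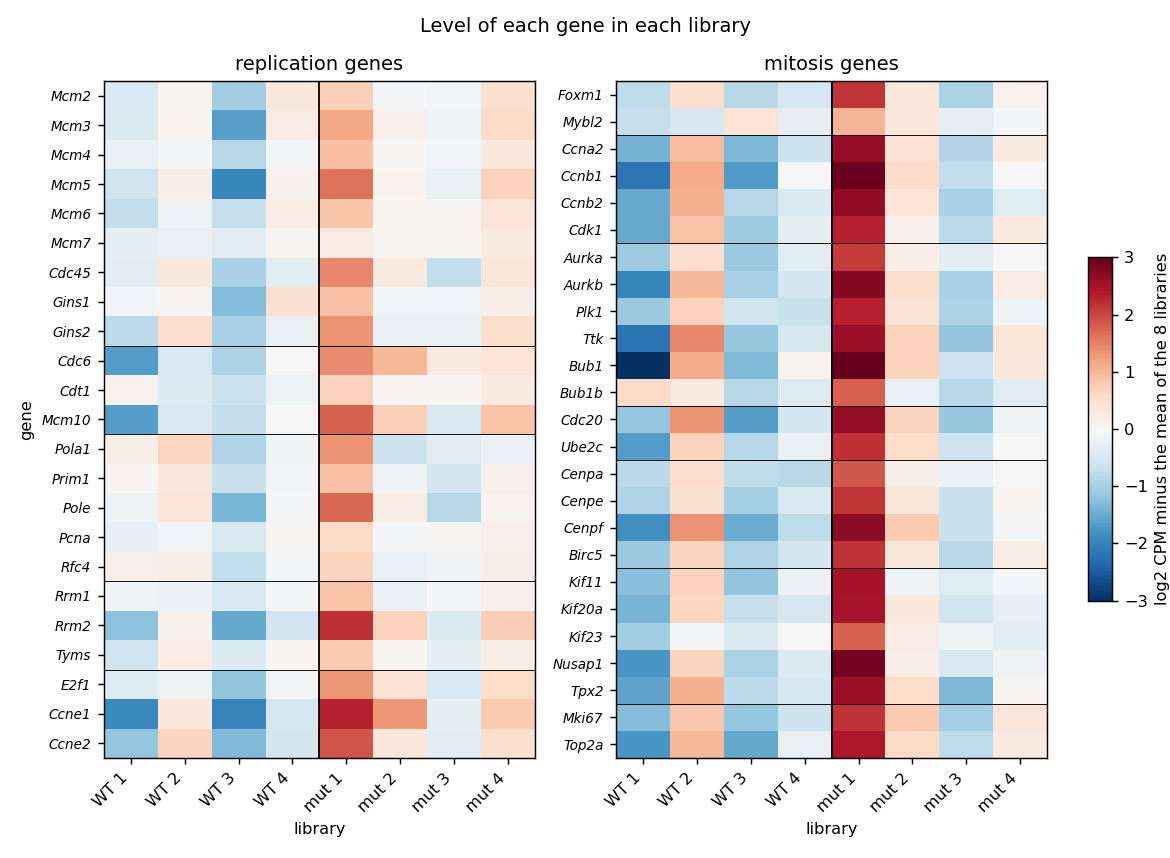
Log2 CPM of each gene in each library minus its mean over the 8 libraries, with replication genes left, mitosis genes right, thin lines between roles, the end colours for differences of 3 or more, and WT (WT) and Thra1PV/+ (mut) libraries 1 to 4 as columns. The column of Thra1PV/+ library 1 holds the highest level for 47 of 48 genes, and WT library 2 is the highest WT library for 22 of 25 mitosis genes and 12 of 23 replication genes.

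With edgeR's quasi-likelihood test, 0 of the 48 genes were called, that is, reached both a 2-fold difference and an adjusted p-value of at most 0.1. Of all 18174 tested genes, 0.924% were called higher and 0.0660% lower in Thra1PV/+ endometrium. At an unadjusted p-value under 0.05, 7 of the 48 were higher and 0 lower (all tested genes, 5.05% higher and 4.72% lower). These 7 were all replication genes: Cdc6, Rrm2, Mcm10, Ccne1, Mcm7, E2f1 and Mcm6. All 48 log2 fold changes were above 0, against 43.2% of tested genes, and 28 were 1 or more (6 replication and 22 mitosis genes), against 6.00% of tested genes. The median log2 fold change was 0.65 for replication and 1.22 for mitosis, beside -0.05 for all tested genes. The mitosis genes thus had the larger differences and the smaller share of low p-values, and their spread was larger: the median SD of log2 CPM within a genotype was 1.15 for mitosis genes, 0.617 for replication genes and 0.453 for all tested genes.
DESeq2, the tool the authors used, called 4 of the 48 genes, against 2.57% of the genes to which it gave an adjusted p-value that were called higher. These were Cdc6 (adjusted p = 0.0164), Rrm2 (0.0626), Ccne1 (0.0659) and Mcm10 (0.0841), and each of these 4 was in the replication group. At an unadjusted p-value under 0.05, DESeq2 gave 13 of the 48, all higher (6.55% of genes with an adjusted p-value), of which 11 were replication genes and 2, Cenpa and Cenpe, mitosis genes. It gave no p-value for Kif11 and Nusap1, which therefore could not be called. Voom with sample weights and limma on the TPM values called 0 of the 48 (1.71% and 0.836% of all tested genes), and at an unadjusted p-value under 0.05 they gave 1 and 6 of the 48, all higher, against 6.19% and 5.35% of all tested genes.

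The extreme values came from the same libraries in most genes. Thra1PV/+ library 1 was the highest of the 8 libraries for 47 of 48 genes, against 14.7% of tested genes. It exceeded the mean of the other 3 Thra1PV/+ libraries by a median ratio of 1.91 for replication genes (1.07 to 3.55) and 5.32 for mitosis genes (1.99 to 7.93). WT library 2 exceeded the mean of the other WT libraries by a median ratio of 1.28 and 3.07, respectively. It was the highest WT library for 34 of 48 genes, against 25.0% of tested genes.
At the low end, the groups differed. WT library 3 was lowest of the 8 libraries for 19 of 23 replication genes (16.8% of tested genes), and WT library 1 for 19 of 25 mitosis genes (17.9% of tested genes). Thra1PV/+ library 3 was the lowest of its genotype for 41 of 48 genes (16.5% of tested genes).

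When Thra1PV/+ library 1 was left out, the differences shrank most in the mitosis group. The median log2 fold change was 0.38 for replication and 0.28 for mitosis, beside -0.01 for all tested genes. No mitosis gene kept a log2 fold change of 1 or more, while 4 replication genes had such a value (all tested genes, 6.52%): Cdc6 (1.31 ± 0.43, SE), Mcm10 (1.13 ± 0.49), Rrm2 (1.15 ± 0.48) and Ccne1 (1.50 ± 0.67). Of the 48 genes, 44 were still above 0 (49.0% of tested genes), and Prim1 (-0.06), Pola1 (-0.36), Ccnb2 (-0.04) and Bub1b (-0.39) were below 0. Mki67 had 0.59 ± 0.62 and Top2a 0.39 ± 0.69 (SE). Again 0 of the 48 were called by edgeR (0.797% of tested genes called in both directions), the smallest adjusted p-value was 0.323, for Cdc6, and 3 had an unadjusted p-value under 0.05 (5.68% of tested genes). DESeq2 without that library, an alternative chosen after the data were seen, called 1 of the 48, Cdc6 (adjusted p = 0.0700; 2.60% of genes called higher).
Leaving out WT library 2 instead moved the mitosis median to 1.88 and the replication median to 0.72. Then 24 of the 48 genes, 10 of replication and 14 of mitosis, had an unadjusted p-value under 0.05 (5.54% of tested genes, higher), and again 0 were called by edgeR (0.811% of tested genes).

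**Figure D3:**
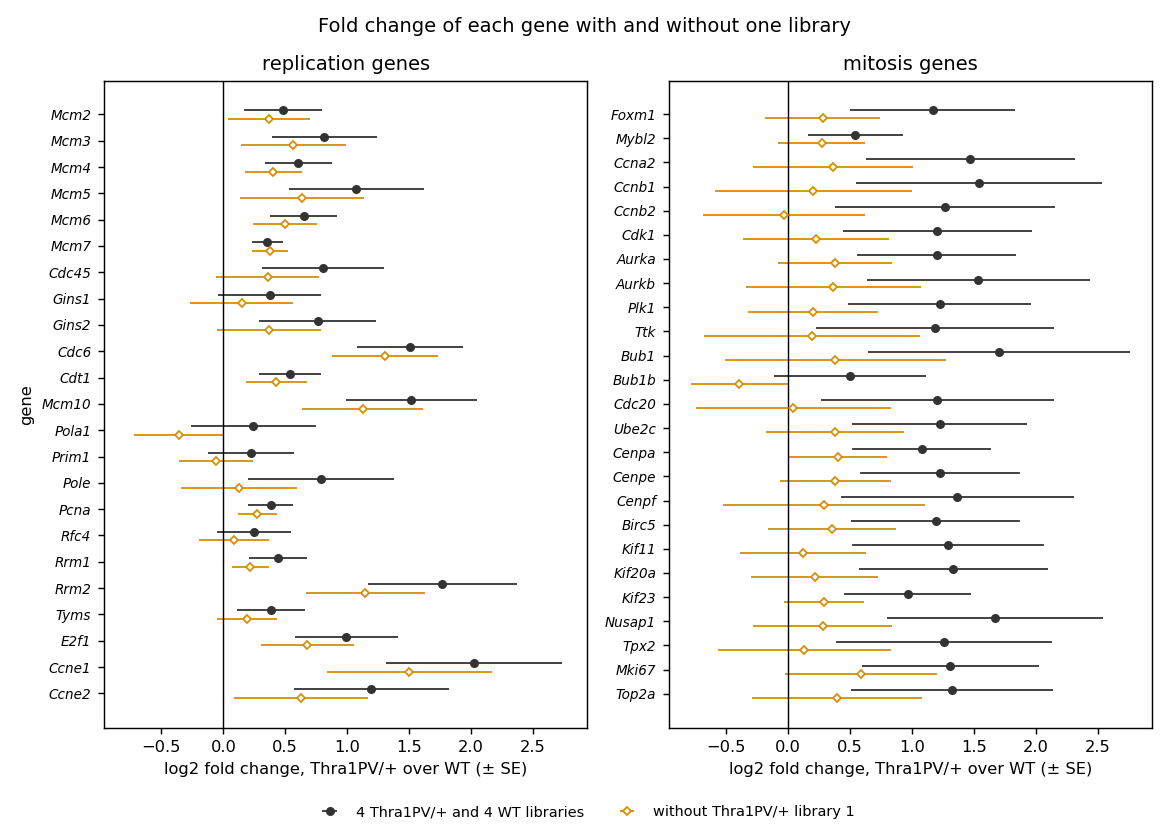
Log2 fold change (Thra1PV/+ over WT) ± SE of each gene from edgeR, with all 8 libraries (filled circles) and without Thra1PV/+ library 1 (open diamonds). Mitosis genes move from a median of 1.22 to 0.28, and replication genes from 0.65 to 0.38.

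Further genes of the same processes were read from other lists. Of 48 other replication genes, 0 were called and 11 had an unadjusted p-value under 0.05, all higher (5.05% of all tested genes). Their log2 fold change was above 0 for 40 (43.2% of tested genes) and below 0 for 8, with a median of 0.46. Without Thra1PV/+ library 1, 10 were below 0 and the median was 0.28. Then 5 were higher and 1 lower at an unadjusted p-value under 0.05. Of the 18568 genes tested without that library, 1054 (5.68%) were higher and 1167 lower. The smallest p-value belonged to Chaf1b, a subunit of the factor that places histones on new DNA, at 24.8, 20.4, 17.4 and 18.4 CPM in Thra1PV/+ and 5.76, 5.67, 9.65 and 12.6 CPM in WT libraries. The groups did not overlap, and the log2 fold change was 1.26 ± 0.30 (SE; adjusted p = 0.165), or 1.20 ± 0.32 without Thra1PV/+ library 1. Rfc3 (clamp loader), Dbf4 (activator of the origin-firing kinase CDC7) and Gmnn (geminin, which inhibits CDT1) followed, with log2 fold changes of 0.61, 0.60 and 0.84 and no overlap between genotypes. These genes were named for their small p-values, which favours genes without overlap. Lig1, also in the list, had none either, and 3.55% of all tested genes were higher in every Thra1PV/+ library.
Dbf4 was 15.1, 14.7, 13.5 and 14.8 CPM in Thra1PV/+ libraries, so library 1 did not stand apart for it, against 7.61, 7.76, 11.2 and 11.7 CPM in WT libraries.

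Of 52 other mitosis genes, 0 were called. At an unadjusted p-value under 0.05, 5 were higher and 1 lower (all tested genes, 5.05% and 4.72%). The log2 fold change was above 0 for 51 (43.2% of tested genes), with a median of 1.13. Without Thra1PV/+ library 1, 41 were above 0 (49.0% of tested genes) and 11 below 0, with a median of 0.27. Then 1 was higher and 0 lower at an unadjusted p-value under 0.05, beside 1054 higher (5.68%) and 1167 lower of 18568 tested genes. Espl1, the gene of separase, which cuts cohesin, was 7.03, 2.46, 2.59 and 2.91 CPM in Thra1PV/+ and 1.07, 2.37, 1.13 and 1.53 CPM in WT libraries (log2 fold change 1.30 ± 0.46, SE; adjusted p = 0.395). Cdc25b, a phosphatase that activates CDK1, Cenpm, a centromere protein, and Cks2, a CDK-binding subunit, had log2 fold changes of 0.63, 1.68 and 0.73.
Of 9 G1 cyclins, CDKs and E2Fs, 0 had an unadjusted p-value under 0.05, with a median log2 fold change of 0.25. Cdk2, the partner of cyclin E, was 30.7 to 33.8 CPM in Thra1PV/+ and 25.9 to 31.0 CPM in WT libraries.
Of 19 genes listed as CDK inhibitors and other brakes on the cycle, 0 were called, and the median log2 fold change was 0.07. At an unadjusted p-value under 0.05, 3 were higher (Lin54, Cdkn2b and Cdkn1a) and 1 lower (E2f5), against 5.05% and 4.72% of all tested genes. The name of the list does not mean that each gene, Lin54 included, acts only as a brake. Cdkn1a, which encodes the inhibitor p21, was 44.1, 141, 118 and 80.6 CPM in Thra1PV/+ and 28.0, 7.48, 41.3 and 67.4 CPM in WT libraries (log2 fold change 1.41 ± 0.61, SE; adjusted p = 0.509). Thra1PV/+ library 1 and WT library 2, the libraries with the most mitotic mRNA, had the lowest Cdkn1a of their genotypes. Cdkn2b, the gene of the inhibitor p15, had the same lowest libraries, at 15.8 and 2.73 CPM. This did not hold for most of the list: Thra1PV/+ library 1 was the lowest of its genotype for 5 of the 19 genes and WT library 2 for 5, with 4 genes in common. The summed CPM of the list was lowest in Thra1PV/+ library 4, at 1090.0, beside 1115 in library 1, and in WT library 2, at 774.

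Marker lists of the captured tissue moved with some of these results. In Thra1PV/+ libraries, the library with the highest mitosis level also had the highest stromal marker level, given above, and the lowest simple epithelial level, at 2651 summed CPM against 4793 to 6427 in the others. Its macrophage markers were 650 summed CPM against 187 to 426 in the other Thra1PV/+ libraries. WT library 2, the highest of its genotype for mitosis, instead had the lowest macrophage level, at 227 summed CPM against 334 to 431. In WT endometrium, libraries 1 and 2 had like stromal levels, at 6073 and 6372 summed CPM, and like epithelial levels, at 2524 and 3254, but the lowest and the highest mitosis level. Smooth muscle markers were 12922 summed CPM in WT library 1 against 145 to 1132 in the other 7 libraries. Stratified squamous markers were 2668 to 4665 summed CPM in Thra1PV/+ and 47.2 to 148 in WT libraries, and 9 of these 10 markers were called higher. Thra1PV/+ library 1 had the lowest squamous level of its genotype and the highest level of the cell cycle genes. The part of tissue make-up in the cell cycle differences was not tested.

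**Figure D4:**
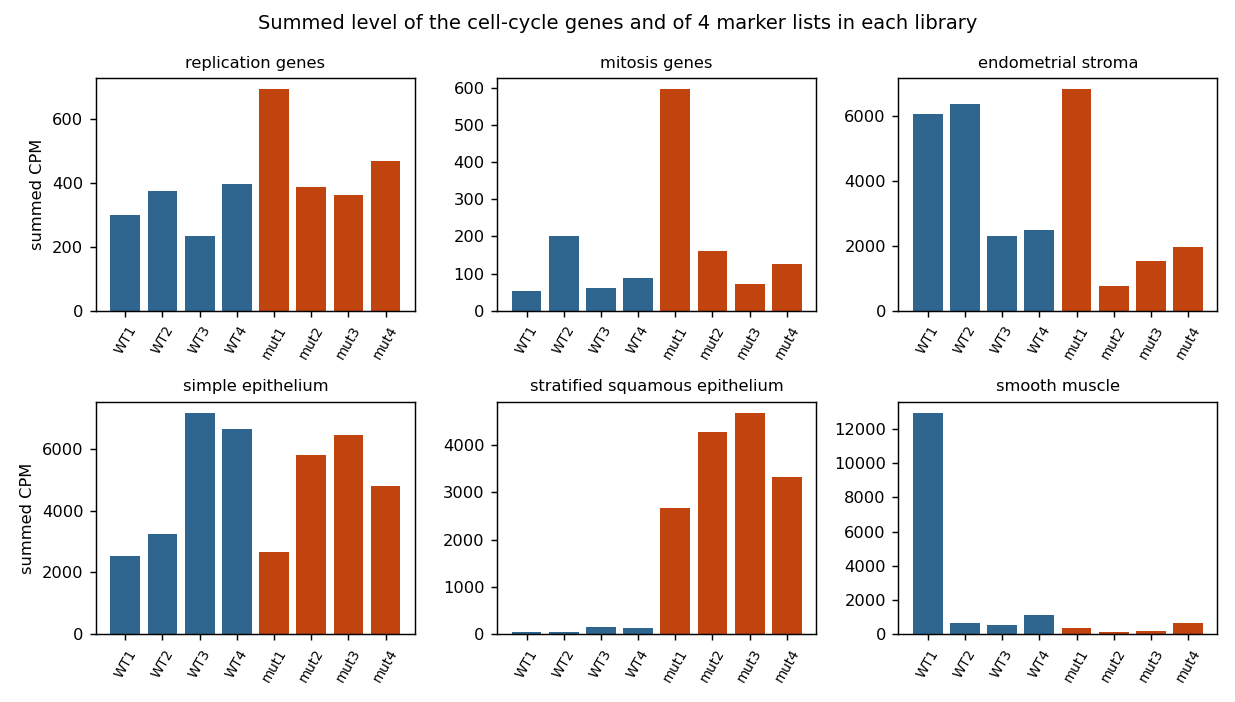
Summed CPM of the replication and mitosis genes and of 4 marker lists in each library (blue, WT; orange, Thra1PV/+, labelled mut), with a separate vertical axis from 0 in each panel. Stromal markers are high in WT1, WT2 and mut1, while squamous markers are high in all 4 Thra1PV/+ libraries.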

How the data were processed

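RNA-seq libraries of LCM endometrium from 4 WT and 4 Thra1PV/+ mice were re-analysed. The authors made stranded mRNA libraries, trimmed paired reads with Trimmomatic and quantified them with salmon for mm10. Their versions and the annotation are not given in the sources used here. For every gene, the authors deposited unnormalized estimated counts in 1 table and TPM values in another. Sorted TPM values differed by at most 0.291 between libraries at any rank, as after quantile normalization. In the TPM table, 1 further column, with negative values and division errors, was left out.

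Estimated counts were rounded to whole numbers and all 52325 rows were kept. Rows without a symbol held at most 0.00897% of a library. In R 4.3.3, with limma 3.58.1 and edgeR 4.0.16, genes that passed filterByExpr (minimum count 10, minimum total 15; 18174 genes) were normalized by TMM and tested by the quasi-likelihood test with genotype as the only term, with Benjamini-Hochberg adjustment over all tested genes. Calls needed a difference of at least 2-fold and an adjusted p-value of at most 0.1. Log2 CPM used a prior count of 2, and standard errors came from the F statistic of each log2 fold change. DESeq2 1.42.0, voom with sample weights, limma on log2 TPM, other normalizations and filters, a replicate block and each library left out in turn were the alternatives. The fits were tested on simulated data first. As each library is 1 mouse, p-values set the genotype difference against the spread between libraries. That spread holds differences between mice and between captures, which cannot be told apart.

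The 48 genes and the further lists were chosen with earlier results of these data known. Values in every library are given for members with an unadjusted p-value of 0.05 or less, the 3 largest other log2 fold changes and the 2 highest TPM values of each group, and Mki67, Top2a, Pcna, Mcm2 and Ccnb1. From each further cell cycle list, up to 4 genes with the smallest p-values were eligible. Bub1b, Pola1, Prim1 and Ccnb2 were named after their values were seen. Named pseudogenes of members (of Pcna, Ccnb1, Ccnb2 and Tyms) held at most 22 counts in any library. Promoters are RefSeq windows on GRCm38.p6.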

Additional observations from a re-analysis of the deposited data

Results flagged for a closer look

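Each genotype's 4 libraries were screened for a library far from the other 3, in log2 CPM of each gene and of the group means, in 102 groups of 4 values. Chance flags about 1 in 20 such groups, or 5.1 here, and 3 stood out, all for mitosis genes. Cenpa, the centromeric histone H3 variant, was 4.31 log2 CPM in Thra1PV/+ library 1 against 2.28 to 2.62 in the others (ratio of gap to range 0.833). The same gene was 2.97 in WT library 2 against 1.63 to 1.70 in the others (0.950). Kif11, a motor that pushes spindle poles apart, was 4.38 in Thra1PV/+ library 1 against 1.55 to 1.85 in the others (0.892).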

How the results depend on the processing

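Of the 48 genes, edgeR called 0 with every other normalization, filter and left-out library tried and with the replicate block, voom with sample weights and limma on TPM also called 0, DESeq2 called 4, DESeq2 without Thra1PV/+ replicate 1 called 1, and an unadjusted p-value under 0.05 without a fold threshold took 7. All genes called numbered 180, and 791 by DESeq2, 1220 by DESeq2 without Thra1PV/+ replicate 1, 81 with at least 10 counts in every library, 311 by voom with sample weights, 119 at an adjusted p-value of 0.05, 1775 at an unadjusted p-value under 0.05, and 81 to 167 when 1 library was left out. The number of the 48 genes below 0 was 4 with voom weights, 1 with limma on log2 TPM at pseudocount 1 and 1 at pseudocount 0.1, 4 without Thra1PV/+ replicate 1 by DESeq2, and 0 to 4 when 1 library was left out. Signs turned for Prim1 (-0.14), Bub1b (-0.26), Pole (-0.045) and Pola1 (-0.17) with voom weights, for Rfc4 with limma on log2 TPM (-0.10 at pseudocount 1, -0.10 at 0.1), and without Thra1PV/+ replicate 1 for Prim1 (-0.061), Ccnb2 (-0.037), Bub1b (-0.39) and Pola1 (-0.36), or -0.078, -0.055, -0.41 and -0.38 by DESeq2. With 1 library left out these 4 ranged up to 0.41, 2.05, 0.79 and 0.53, respectively. The median log2 fold change was 0.38 to 0.77 for replication and 0.28 to 1.88 for mitosis when 1 library was left out, and 0.33 and 0.29 with voom weights. The voom weights were 0.516, 1.18, 3.59 and 1.77 for Thra1PV/+ libraries 1 to 4 and 0.512, 0.685, 0.513 and 1.44 for WT libraries 1 to 4. The cause of these changes was not tested beyond the left-out libraries.

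The sample labels do not say whether replicate numbers pair the samples. Deviations of same-numbered libraries from their genotype means correlated at 0.27, -0.44, 0.34 and -0.16. These values cannot settle the question, since the make-up of the captured tissue also differed between libraries. With the replicate block, 82 genes were called, 0 of the 48, and medians were 0.59 for replication and 0.88 for mitosis. At 4 libraries a group, standard errors of 0.38 to 1.06 log2 units for the mitosis genes limit what could be called.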
